A study of Mus musculus with 8 samples.

Results

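The genes described here are 7 transcripts known from the striatal projection neuron: *Adora2a*, *Drd2*, *Ppp1r1b*, *Penk*, *Tac1*, *Rgs9* and *Pde10a*. They were picked by name for where they are used in the brain, with no cut-off on a measured value, and 7 of 7 were found by symbol among the 24015 entries of the count table. All 7 passed the filter on low values and were among the 15588 genes tested. They were measured in every library (lowest count 17, *Drd2* in the shallowest library). No member differed between genotypes after adjustment over all genes. *Penk* and *Tac1*, the members that varied most, were highest in 1b+/- replicate 1 and lowest in 1b+/- replicate 2. Of all genes tested, 15.3% were highest in the former library and 19.4% were lowest in the latter.

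Striatal projection neurons, also called medium spiny neurons, are the inhibitory output cells of the striatum, a structure of the ventral forebrain that the hippocampus does not contain. They come in a pair of classes. Indirect-pathway cells carry the D2 dopamine receptor and the adenosine receptor encoded by *Adora2a* and make enkephalin, whereas direct-pathway cells carry the dopamine D1 receptor and make substance P and dynorphin. Both classes read dopamine and adenosine through cAMP, and both make DARPP-32, the phosphodiesterase PDE10A and the G-protein regulator RGS9. Many of these transcripts are also made at lower levels elsewhere, enkephalin and substance P in scattered neurons of cortex, hippocampus and hypothalamus, so none alone identifies the striatum.

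The libraries came from 8 C57BL/6N mice at postnatal day 7, from a line in which CRISPR editing removed 1b, a non-coding regulatory interval of the sodium channel gene *Scn1a*. WT mice (n = 2, both male) carried no deletion, 1b+/- mice (n = 4, replicates 1 and 2 male, replicates 3 and 4 female) carried it on 1 allele, and 1b-/- mice (n = 2, both female) on both alleles. Sex and genotype therefore cannot be told apart between WT and 1b-/-. The tissue is hippocampus in the sample labels and forebrain in the methods of the study, and the levels of striatal genes bear on which structures were collected.

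Sequencing depth ranged from 2947770 counts in 1b+/- replicate 4 to 20878772 in 1b+/- replicate 3, so a count of 0 allowed up to 1.0 CPM and 0.145 CPM respectively. CPM gives the counts of a library brought to a common library size, and these limits cover counting error only. *Scn1a* followed the labels, at 40.5 to 45.1 CPM in WT, 15.7 to 26.7 in 1b+/- and 2.0 to 3.18 in 1b-/-. Libraries stood apart within 1b+/-. Replicate 2 was the lowest of the 8 libraries for 29 of 66 other striatal genes tested (43.9%), against 19.4% of all genes tested. It was also lowest for 7 of 12 choroid plexus genes, whose summed level was 1045 to 1099 CPM in WT, 116 to 1061 in 1b+/- and 504 to 927 in 1b-/-, with replicate 2 at the bottom. The same library was highest for 6 of 16 neocortical genes and lowest for 3, against 18.4% and 19.4% of all genes tested. The neocortical sum was 4119 to 4623 CPM in WT, 2597 to 4505 in 1b+/- and 3177 to 4508 in 1b-/-. Replicate 1 was lowest for 7 and highest for 2 of those 16, and highest for 5 of 8 cerebellar and hindbrain genes tested. A gene was tested if 1 library reached 1 CPM, and some of these 8 passed only through the library where they were high. The count of 5 was therefore partly fixed by the filter. Over all genes tested replicate 1 was lowest for 15.1% and highest for 15.3%, which is not a like background for such sparse genes. The cerebellar and hindbrain list summed to 79.9 to 85.7 CPM in WT, 69.1 to 123 in 1b+/- and 71.5 to 90.6 in 1b-/-. Replicate 1 was also highest for 6 and lowest for 1 of 12 thalamic genes. Their sum was 214 to 477 CPM in WT, 214 to 491 in 1b+/- and 218 to 330 in 1b-/-, with replicate 1 at the top. Hippocampal genes summed to 610 to 663 CPM in WT, above all other libraries (422 to 565 in 1b+/- and 481 to 530 in 1b-/-). Striatal signalling genes other than the members summed to 1557 to 1648 CPM in WT, above 1b+/- (1266 to 1515) and overlapping 1b-/- (1508 to 1608). Striatal transcription factors summed to 4383 to 4468 CPM in WT, above 1b+/- (3263 to 4254) and within the range of 1b-/- (3603 to 5346). These sums lean on a few abundant genes. Mean CPM in WT and 1b+/- was 555 and 473 for *Cnr1*, 346 and 270 for *Gnal*. It was 1660 and 1295 for *Mef2c*, and 236 and 177 for *Neurod1*. In the edgeR fit below, median log2 fold changes of 1b+/- against WT were -0.04 (signalling), -0.09 (transcription factors) and -0.12 (hippocampal). Of all genes tested, 12.3% did not overlap between those groups. The part of these library differences in the values of the members was not tested. In bulk tissue, fewer cells of a type and less RNA per cell cannot be told apart.

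To ask whether striatal transcripts were present, levels were set side by side per length, as RPKM (CPM divided by the kilobases of merged exons). *Penk* had the highest mean RPKM of the 7, at 16.5 ± 5.49 (SD, n = 8 for each gene here), and encodes the enkephalin precursor. *Pde10a* followed at 13.3 ± 1.40 RPKM and *Tac1*, the substance P precursor, at 12.9 ± 4.82. *Rgs9* stood at 6.73 ± 1.07 RPKM. The receptors and DARPP-32 were lowest, at 3.02 ± 0.724 RPKM for *Drd2*, 2.96 ± 0.822 for *Adora2a* and 2.65 ± 0.650 for *Ppp1r1b*. Among the 14431 tested genes with an annotated length, these means ran from percentile 35.3 (*Ppp1r1b*) to percentile 76.1 (*Penk*). The median of the members was 6.73 RPKM and that of all ranked genes was 5.37. The striatal genes were thus mid-range transcripts of this tissue, neither absent nor among the abundant ones.

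Neighbours in that order were mostly within their spread. *Penk* exceeded *Pde10a* in 6 of 8 libraries, *Pde10a* exceeded *Tac1* in 5 of 8, and *Tac1* exceeded *Rgs9* in 7 of 8. *Rgs9* exceeded *Drd2* in 8 of 8, the only neighbouring pair ordered alike in every library. *Drd2* exceeded *Adora2a* in 5 of 8 and *Adora2a* exceeded *Ppp1r1b* in 5 of 8. The order also rests on the length used. With the longest annotated transcript in place of merged exons, *Pde10a*, which has 12 annotated transcripts, stood first at 21.8 RPKM, ahead of *Penk* at 18.6.

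Other striatal genes were taken from lists of signalling genes, peptides and their receptors, and transcription factors. Over the signalling list, 34 genes were in the table with a median of 2.499 RPKM, and 10 of them had a mean under 1 CPM. Its most abundant genes were *Cnr1*, the cannabinoid CB1 receptor (78.0 RPKM), and *Gnal*, the G protein alpha subunit that couples striatal receptors to cAMP (38.5 RPKM). *Drd1a*, the D1 receptor, stood at 6.16 ± 0.845 RPKM, above *Drd2*. *Pdyn*, the dynorphin precursor, was low, at 1.17 ± 0.456 RPKM. Among 21 transcription factors the median was 11.4 RPKM, led by *Mef2c* (195 RPKM), *Bcl11b* (83.4 RPKM) and *Meis2* (69.5 RPKM), each of which is also used in cortex. The 8 peptides and receptors had a median of 1.36 RPKM and were led by *Npy* (256 RPKM), *Sst* (159 RPKM) and *Nts* (38.1 RPKM). *Npy* and *Sst* are made by interneurons of cortex and hippocampus as well as of striatum.

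Markers of the other tissues the samples could hold were measured alongside. Neocortical genes had the highest median of the regional lists (21.7 RPKM over 16 of 17 genes with a length), led by *Neurod6* (728 RPKM), *Bhlhe22* (180 RPKM) and *Neurod2* (89.4 RPKM), all of them also used by hippocampal pyramidal cells. Hippocampal genes had a median of 1.37 RPKM over 20 genes, of which 5 had a mean under 1 CPM. They were led by *Pcp4* (83.8 RPKM), *Neurod1* (69.3 RPKM) and *Lhx2* (35.05 RPKM), which are not limited to the hippocampus. *Prox1*, the dentate granule cell factor, stood at 4.77 RPKM, and is named here with its value already known. The 7 striatal members thus had a median RPKM above that of the hippocampal list and below that of the neocortical list, with no reference tissue to set them against.

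Other regions and cell types spanned a wide range. Cerebellar and hindbrain genes had a median of 0.156 RPKM, with 11 of 14 under 1 CPM, and hypothalamic genes 0.491 RPKM, with 10 of 15 under 1 CPM. Genes of dopamine neurons, whose axons supply the striatum from the midbrain, had a median of 0.507 RPKM over 12 genes, with 4 under 1 CPM, and were led by *Nr4a2* (33.5 RPKM), which cortical neurons also make. Striatal cholinergic interneuron genes had a median of 0.695 RPKM, with 3 of 6 under 1 CPM, and their most abundant gene was *Lhx8* (3.85 RPKM). Genes for GABA synthesis and transport, shared by every inhibitory neuron, had a median of 15.95 RPKM over 4 genes. Thalamic genes had a median of 1.95 RPKM over 12 genes, olfactory bulb genes 1.56 RPKM over 6 and choroid plexus genes 3.05 RPKM over 12, the last led by *Ttr* (429 RPKM). None of these lists had a gene with 0 counts in every library.

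**Figure D1:**
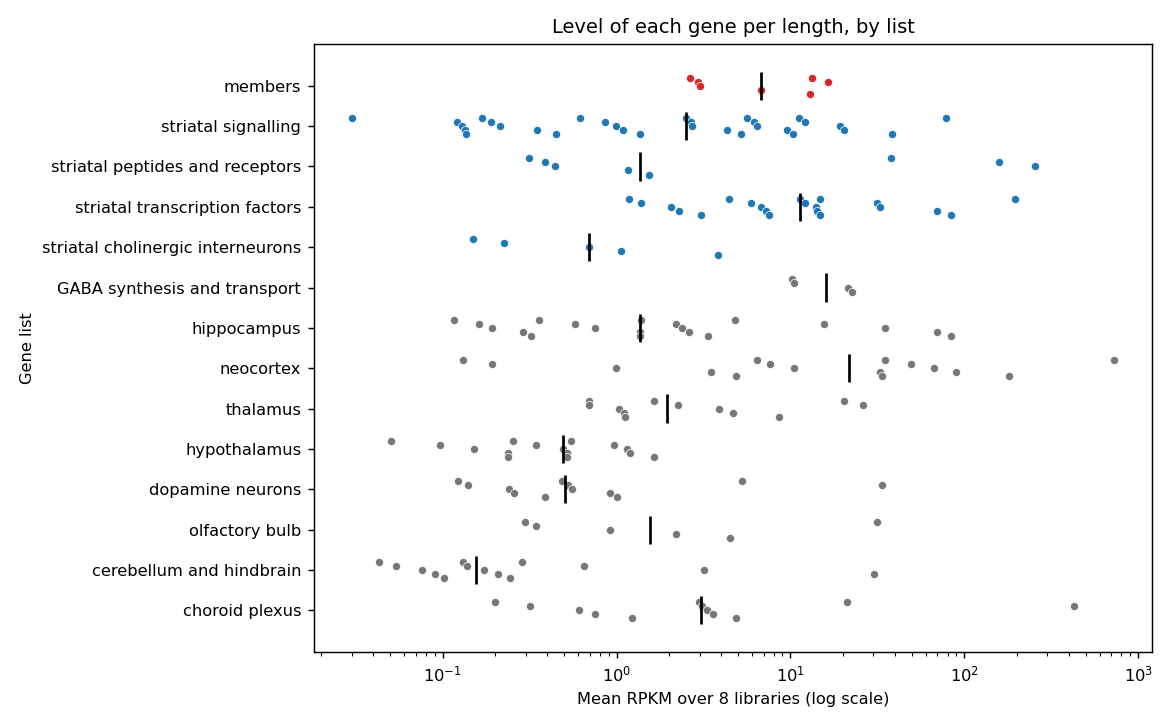
Mean RPKM over the 8 libraries (log scale) of each gene in the striatal and other regional lists, 1 point per gene, with a black bar at the median of the list. The 7 members (red) span 2.65 to 16.5 RPKM, above the hypothalamic and cerebellar medians. They lie within the ranges of the striatal signalling, peptide and transcription factor lists (blue). The other blue list, striatal cholinergic interneurons, spans 0.150 to 3.85 RPKM, below *Penk*, *Pde10a*, *Tac1* and *Rgs9*.

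The members were next followed library by library, beginning with the neuropeptides of each output class. *Penk* was 29.9 and 26.2 CPM in WT, 43.8, 12.9, 32.0 and 20.4 CPM in 1b+/- replicates 1 to 4, and 24.5 and 26.0 CPM in 1b-/-. *Tac1* was 15.3 and 11.95 CPM in WT, 22.2, 5.25, 13.7 and 9.01 CPM in 1b+/-, and 15.3 and 14.3 CPM in 1b-/-. Both genes had their highest and their lowest value inside the 1b+/- group, in the male replicates 1 and 2, and WT and 1b-/- lay in between. That group held 4 of the 8 libraries. Of all genes tested, 15.3% were highest in its replicate 1 and 19.4% were lowest in its replicate 2. The ratio of the highest to the lowest CPM was 3.38 for *Penk* and 4.24 for *Tac1*. Over the 8 libraries the coefficient of variation was 33.3% for *Penk* and 37.3% for *Tac1*, where counting error alone would give 7.33% and 10.4%.

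*Penk* and *Tac1* tracked each other although they mark different output classes. Over the 8 libraries the Pearson r of their log2 CPM was 0.952 (exact two-sided permutation p 0.00159, Benjamini-Hochberg adjusted p 0.0333 over 21 pairs of members). The Spearman rho was 0.643 (exact permutation p 0.0962, adjusted p 0.673). Without the 2 libraries farthest from the median, 1b+/- replicates 1 and 2, r was 0.701 over 6, so the size of the relation rests largely on those libraries. Without replicate 2 alone r was 0.875. No other pair of members passed the adjusted threshold, the next being *Ppp1r1b* and *Pde10a* (r 0.753, exact permutation p 0.0704, adjusted p 0.493). *Penk* made up 61.5% and 64.6% of the summed *Penk* and *Tac1* counts in 1b-/- (exact 95% binomial intervals 56.0% to 66.9% and 56.7% to 72.0%). In the other 6 libraries it made up 66.2% to 71.1%, so both 1b-/- shares lay below all others. The interval of 1b-/- replicate 1 ended just below that of 1b+/- replicate 3 (67.0% to 72.9%) and overlapped those of the remaining libraries. The difference in share between genotypes was not tested.

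**Figure D2:**
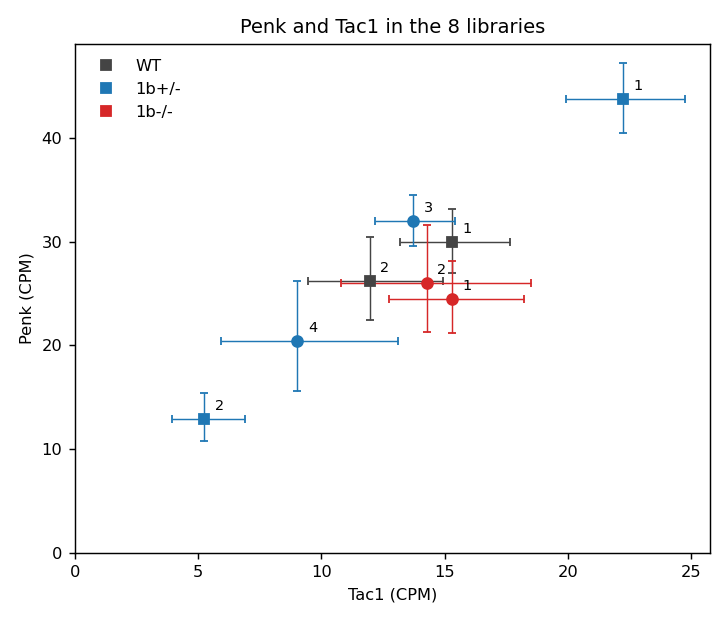
*Penk* against *Tac1* in CPM, 1 point per library (squares male, circles female), coloured by genotype and numbered by replicate, with 95% Poisson counting intervals. 1b+/- replicates 1 and 2 mark the upper and lower ends, at 43.8 and 12.9 CPM for *Penk*, with WT and 1b-/- between them.

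The *Penk* and *Tac1* promoters are known for elements that answer cAMP. Among RefSeq promoter windows of GRCm38.p6, which run from 250 bases before to 50 after each start, *Tac1*, *Drd2*, *Rgs9* and *Pde10a* were matched (4 of 7 members) and *Adora2a*, *Penk* and *Ppp1r1b* were not. The windows were searched on both strands for TGACGTCA, the palindromic cAMP response element, and for TGCGTCA, a variant of it. Only the *Tac1* window held either, and the stretch is shown because *Tac1* had the widest spread between libraries. The element, in capitals, sits in a plus-strand stretch at chr6:7554851-7554880 and starts 199 bases before the transcript start.
Tac1: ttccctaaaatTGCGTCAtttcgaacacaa
TGCGTCA was held by 695 of 32851 windows (2.12%) and TGACGTCA by 588 (1.79%). A match describes letters only, since binding was not measured.

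The receptors of the indirect pathway varied less, and in other libraries. *Drd2* was 6.95 and 7.20 CPM in WT, 7.06, 6.46, 8.19 and 5.68 CPM in 1b+/-, and 11.8 and 8.26 CPM in 1b-/-. *Adora2a* was 6.70 and 5.21 CPM in WT, 8.58, 6.97, 6.88 and 12.02 CPM in 1b+/-, and 7.59 and 6.01 CPM in 1b-/-. Both 1b-/- libraries were above the other 6 for *Drd2*, and all 4 1b+/- libraries were above both WT libraries for *Adora2a*. The nearest values were 8.26 against 8.19 CPM for *Drd2* and 6.88 against 6.70 CPM for *Adora2a*, closer than counting error. Groups of 1b+/- and WT did not overlap for 12.3% of all genes tested. The share of genes with both 1b-/- libraries above all others was not computed. These genes were counted thinly. The shallowest library, 1b+/- replicate 4, gave the highest *Adora2a* and the lowest *Drd2* on 36 and 17 counts. The coefficients of variation were 27.8% for *Adora2a* and 23.98% for *Drd2*, with 13.9% and 13.7% from counting alone. *Drd1a* spanned 17.9 to 25.8 CPM, and *Drd2* made up 21.4% to 31.3% of the summed counts of both dopamine receptors.

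Signalling genes shared by both output classes did not move as a block. *Ppp1r1b*, which encodes the phosphatase inhibitor DARPP-32, was 7.03 and 9.65 CPM in WT, 8.32, 3.84, 8.34 and 8.68 CPM in 1b+/-, and 6.61 and 9.51 CPM in 1b-/-. *Rgs9* was 42.3 and 41.4 CPM in WT, 45.4, 51.1, 39.9 and 34.1 CPM in 1b+/-, and 53.7 and 36.1 CPM in 1b-/-. *Pde10a*, which degrades cAMP and cGMP, was 176 and 175 CPM in WT, 153, 130, 177 and 170 CPM in 1b+/-, and 182 and 181 CPM in 1b-/-. *Ppp1r1b* and *Pde10a* were lowest in 1b+/- replicate 2, as were *Penk* and *Tac1*, whereas *Rgs9* had its second highest value in that library. *Pde10a* was the steadiest member, with a highest to lowest ratio of 1.40 and a coefficient of variation of 10.5% (2.93% from counting), against 15.9% for *Rgs9* (5.80% from counting) and 24.6% for *Ppp1r1b* (13.7% from counting). Both 1b-/- libraries exceeded the other 6 for *Pde10a*, by at most 1.40-fold.

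**Figure D3:**
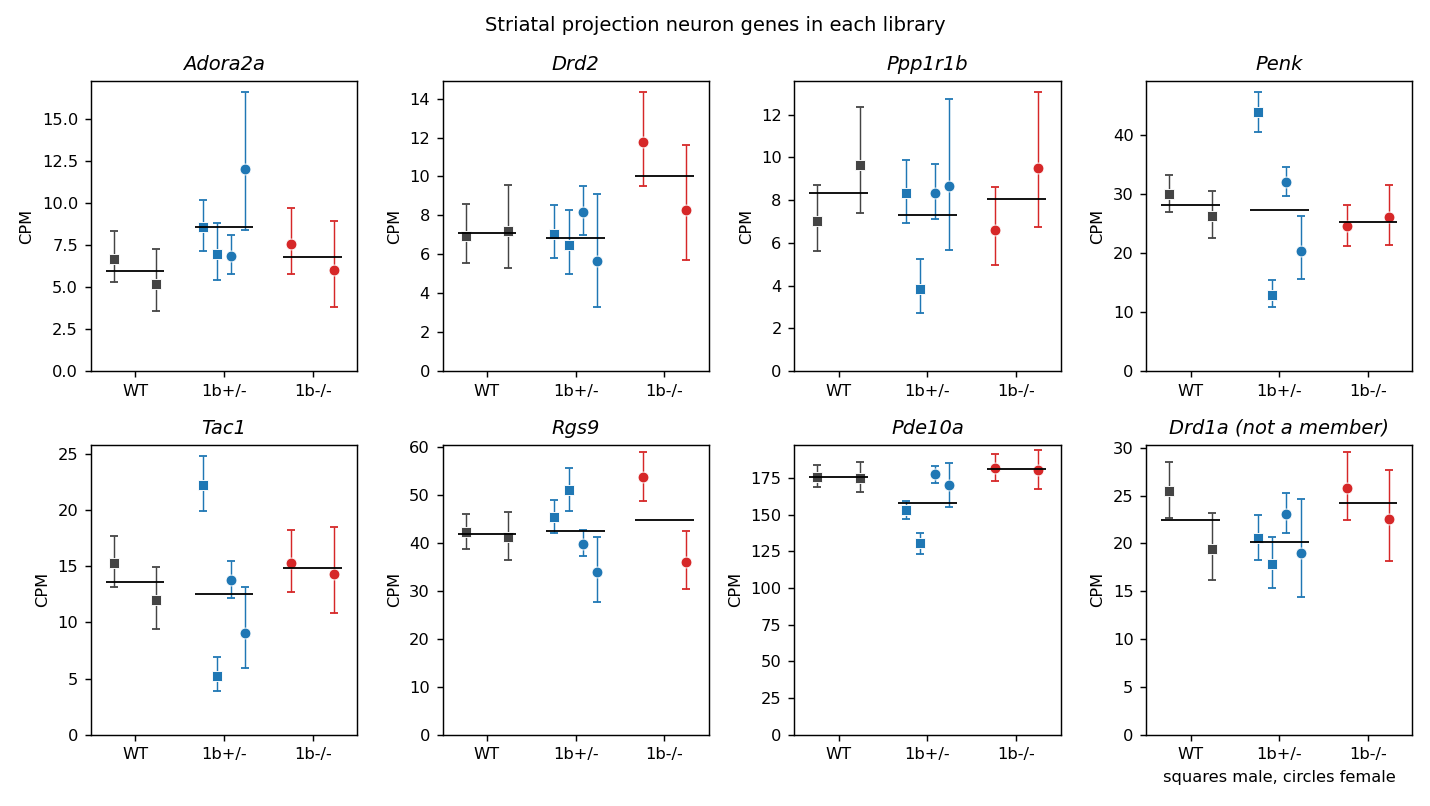
CPM of the 7 members and of *Drd1a* in each library by genotype (squares male, circles female; bars are 95% Poisson counting intervals and black lines are group means). *Penk* and *Tac1* reach 43.8 and 22.2 CPM in 1b+/- replicate 1 and fall to 12.9 and 5.25 CPM in replicate 2, while WT and 1b-/- stay close together.

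Taking the libraries as rows of deviations from the mean of each gene (in log2 of CPM plus a pseudocount of 0.5), 1b+/- replicate 2 had the lowest median over the members, -0.36, followed by replicate 4 at -0.32. The other 6 libraries had medians between -0.04 and 0.14. Over all genes tested the library medians lay between -0.01 and 0.01. In replicate 2 the deviations ran from -1.18 for *Tac1*, through -0.96 for *Penk* and -0.88 for *Ppp1r1b*, to 0.26 for *Rgs9*. It was also the lowest library for *Drd1a* (17.9 CPM, others 19.03 to 25.8) and *Pdyn* (1.01 CPM, others 2.34 to 5.35). It held fewer choroid plexus counts than the others, as given above. It was highest for 4 of 5 olfactory bulb genes tested, against 18.4% of all genes, and their sum was 293 CPM there and 109 to 192 CPM elsewhere. Replicate 1, highest for *Penk* and *Tac1*, was highest for 5 and lowest for 2 of 8 other striatal peptides and receptors. A gene among those 5 passed the filter only through that library. Replicate 1 was lowest for 8 and highest for 4 of 21 transcription factors, beside the thalamic and hindbrain genes given above. Over all 66 other striatal genes tested it was lowest for 16.7% and highest for 24.2%, against 15.1% and 15.3% of all genes. 1b-/- replicate 1 was highest for *Drd2*, *Rgs9* and *Pde10a*, and for 7 of 31 other signalling genes and 7 of 21 transcription factors. In the same lists it was lowest for 3 and 0. Over all genes tested it was highest for 10.5% and lowest for 11.2%. The causes of these library differences were not tested.

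**Figure D4:**
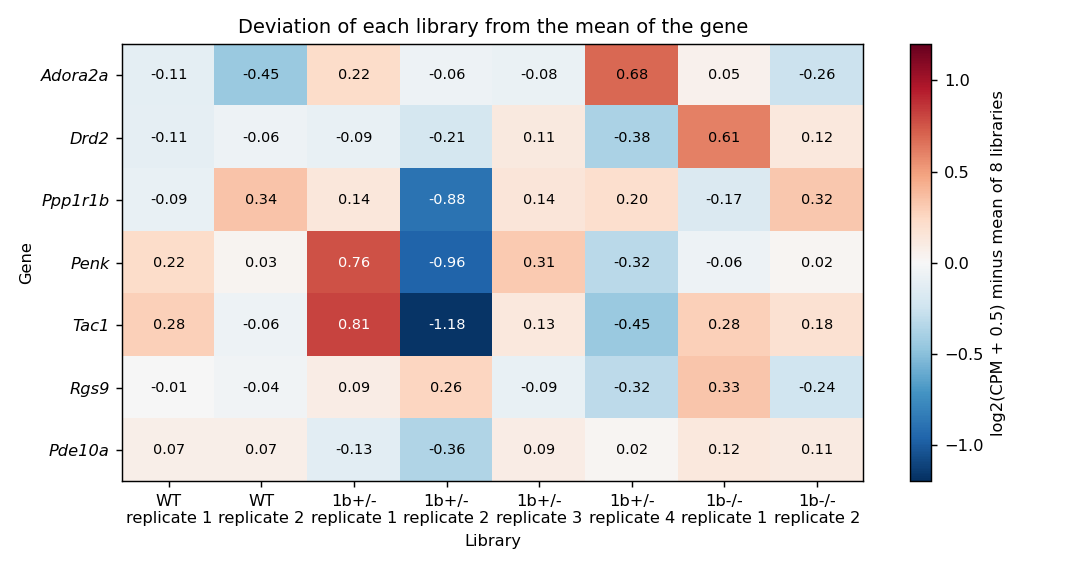
Deviation of each library from the mean of the gene, in log2(CPM + 0.5), for the 7 members (rows) in the 8 libraries (columns), blue below and red above the mean. The column of 1b+/- replicate 2 holds the lowest value of 4 of the 7 members, down to -1.18 for *Tac1*, but is above the mean for *Rgs9* at 0.26. *Adora2a* is lowest in WT replicate 2, and *Drd2* and *Rgs9* in 1b+/- replicate 4.

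Each member was set against the mean centred log2 CPM of the members over the 8 libraries. That mean contains the member itself and leans towards *Tac1* and *Penk*, which varied most. Their r of 0.967 and 0.913 therefore follows in part from the calculation and does not show a pattern shared by the members. *Ppp1r1b* had r 0.695, *Pde10a* 0.670, *Drd2* 0.483, *Adora2a* 0.06 and *Rgs9* -0.11. Among 9586 other genes with a mean of at least 10 CPM, the most alike were *2610002M06Rik* (r 0.961), *Tenm1* (0.957), *Ano4* (0.952) and *Lrrtm3* (0.951), followed by *Col25a1* (0.943), *Grik1* (0.937), *Guk1* (0.931) and *Vwc2l* (0.930). The least alike were *Tor1aip1* (r -0.968), *Pax6* (-0.966) and *Cdon* (-0.941). *Pax6* and *Cdon* are genes of progenitor cells in the developing forebrain. These are descriptions over 8 points that share depth and tissue make-up, and the best of 9586 values is high by selection.

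To ask whether the 1b deletion was accompanied by a change in striatal transcripts, all genes were fitted together with the edgeR quasi-likelihood test and Benjamini-Hochberg adjustment at 0.05. In 1b+/- against WT, 0 of 7 members passed, where 0.0834% of all genes tested did. The 1b-/- libraries gave 0 of 7 members, both against WT and against 1b+/-, where 0.00642% of all genes passed in each, which is *Scn1a* alone. DESeq2 also called 0 members in each comparison. At an unadjusted threshold of 0.05, edgeR gave 0, 0 and 1 members in the same order, the 1 being *Drd2*, against 4.34%, 1.64% and 1.23% of all genes. The smallest adjusted p of a member was 0.999 or higher in each comparison. The comparisons with WT share the WT libraries and are not independent. Whether libraries came from separate litters is not stated in the labels, so p-values measure the spread between these samples.

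In 1b+/- against WT the largest member difference was that of *Adora2a*, at 8.61 ± 2.40 CPM (SD, n = 4) against 5.95 ± 1.05 CPM (SD, n = 2), which the edgeR fit put at 0.46 on the log2 scale (SE 0.28). It was the 1 member of 7 whose groups did not overlap, where 12.3% of all genes tested did not. The peptides had nearly equal means. Their SD was larger in 1b+/-, but the SD of WT rests on 2 libraries, and the difference in spread was not tested. *Penk* was 27.3 ± 13.5 CPM in 1b+/- and 28.1 ± 2.64 CPM in WT (log2 fold change -0.02, SE 0.36), and *Tac1* was 12.6 ± 7.33 and 13.6 ± 2.36 CPM (-0.08, SE 0.42). *Pde10a* had a log2 fold change of -0.16 (SE 0.14), *Ppp1r1b* -0.19 (SE 0.33), *Rgs9* 0.04 (SE 0.20) and *Drd2* -0.01 (SE 0.24). The median over the members was -0.02 and that over all genes 0.01. Without 1b+/- replicate 2, the log2 fold changes of *Penk* and *Tac1* became 0.23 (SE 0.25) and 0.19 (SE 0.30), that of *Ppp1r1b* became 0.03 (SE 0.25), and that of *Adora2a* was 0.54 (SE 0.29). Its edgeR adjusted p of 0.897 was the lowest of any member under any alternative. The standard errors leave changes of about that size undetected.

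In 1b-/- against WT the largest difference was that of *Drd2*, 10.01 ± 2.47 CPM against 7.07 ± 0.182 CPM (SD, n = 2 each), or 0.52 on the log2 scale (SE 0.28). *Drd2*, *Pde10a* and *Penk* had groups that did not overlap (3 of 7, where 23.6% of all genes tested did not). *Pde10a* differed by 0.05 (SE 0.17) and *Penk* by -0.16 (SE 0.42), both smaller than their standard errors. The other differences were 0.20 (SE 0.33) for *Adora2a*, -0.06 (SE 0.39) for *Ppp1r1b*, 0.11 (SE 0.23) for *Rgs9* and 0.11 (SE 0.49) for *Tac1*. The median over the members was 0.11, and -0.01 over all genes. The *Drd2* value rested mainly on 1b-/- replicate 1, without which it was 0.22, and it was 0.73 without 1b-/- replicate 2. In the fit with sex as a covariate, which only the 1b+/- group can inform, it was 0.43.

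In 1b-/- against 1b+/-, *Drd2* again differed most (log2 fold change 0.54, SE 0.24, edgeR adjusted p 1.0), with both 1b-/- libraries above all 4 of 1b+/-. *Pde10a* averaged 181 ± 1.08 CPM over the 1b-/- libraries (SD, n = 2) against 158 ± 20.8 CPM (SD, n = 4), or 0.20 on the log2 scale (SE 0.14), also without overlap. That made 2 of 7 members, where 7.39% of all genes tested had groups that did not overlap. Without 1b+/- replicate 2 the *Pde10a* difference was 0.12 (SE 0.13), and without 1b-/- replicate 1 the *Drd2* difference was 0.24. *Adora2a* differed the other way, at -0.27 (SE 0.29). The remaining log2 fold changes were -0.14 (SE 0.37) for *Penk*, 0.13 (SE 0.34) for *Ppp1r1b*, 0.19 (SE 0.43) for *Tac1* and 0.08 (SE 0.20) for *Rgs9*. The median over the members was 0.13, and -0.0043 over all genes.

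**Figure D5:**
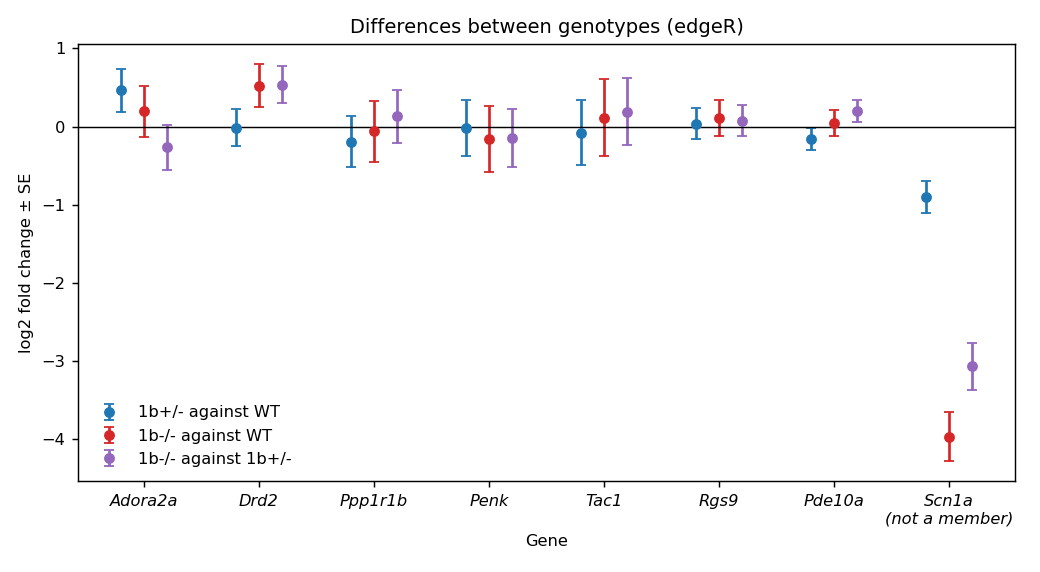
Log2 fold change ± SE from the edgeR fit for the 7 members and for *Scn1a* in the 3 comparisons of genotypes. Member estimates lie between -0.27 and 0.54, whereas *Scn1a* reaches -3.97 in 1b-/- against WT.

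Among the other striatal lists, the number of genes past the threshold was 0 in every comparison, of 31 signalling genes, 8 peptides and receptors and 21 transcription factors tested. At the unadjusted threshold, 2 of 31 signalling genes were lower in 1b+/- against WT, where 4.34% of all genes tested passed in either direction. In 1b-/- against WT, 1 of 21 transcription factors was higher (background 1.64%), and in 1b-/- against 1b+/- 2 of 21 were higher (background 1.23%). The lists were not tested against the background. The median log2 fold changes of the signalling list in the same order were -0.04, 0.05 and 0.10, and those of the transcription factors were -0.09, 0.09 and 0.23. *Drd1a*, the dopamine receptor gene of the direct pathway, had log2 fold changes of -0.16 (SE 0.18), 0.10 (SE 0.22) and 0.26 (SE 0.19). *Pdyn* had -0.42 (SE 0.48), -0.26 (SE 0.58) and 0.16 (SE 0.52). Differences of these sizes were not detectable with 2 to 4 libraries per group.

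The members lie on 6 chromosomes of mm9 and are protein-coding genes read here over all their exons. *Adora2a* is at chr10:74779688-74797533, *Drd2* at chr9:49148732-49216282, *Ppp1r1b* at chr11:98209718-98219110 and *Penk* at chr4:4060678-4065966. *Tac1* is at chr6:7505071-7512973, *Rgs9* at chr11:109086669-109159443 and *Pde10a* at chr17:8718237-9179513. *Penk* and *Rgs9* are on the minus strand and the other 5 on the plus strand. Exons of *Ppp1r1b* overlap the non-coding RNA *1700003D09Rik* on the opposite strand, which held 2.99% as many counts as *Ppp1r1b* over all libraries, and exons of *Penk* overlap *A830012C17Rik*, not analysed here. How the counting treated strand was not stated, so reads of these partners cannot be told apart from those of the members.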

How the data were processed

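Messenger RNA of 8 mice was sequenced as single-end reads from stranded libraries. Per the labels, the authors aligned reads to mm9 with STAR 2.7.2 and used featureCounts for counting. The deposited values are whole-number counts per gene symbol, not normalized. The strand setting, the annotation release and the treatment of reads that match several places are not given in the sources used here. Genotype and sex came from the labels, and replicate numbers follow sample order and pair no animals.

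Counts were fitted in R 4.3.3 with the quasi-likelihood test of edgeR 4.0.16 (TMM scaling, a minimum of 1 CPM in 1 or more libraries, genotype as the only factor, all 8 libraries). P-values were adjusted by Benjamini-Hochberg over 15588 genes, and the fit was tested on simulated data. RPKM used merged exon lengths of an mm9 GENCODE annotation, which held 92.6% of the tested genes. Intervals of counts cover counting error only. In 27 entries the symbol had become a date. Alternatives were filterByExpr, no filter, RLE scaling, the likelihood ratio test, DESeq2 1.42.0, sex as a covariate, omission of each library, unscaled totals and another gene length.

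The text names the 7 members, the 3 genes of highest mean RPKM in the lists, *Drd1a* and *Pdyn*, the 8 genes most and 3 least like the members, *Scn1a*, and any list gene past the threshold. Some genes that this rule would name are not reported here. The members and lists were chosen with earlier results of these data known.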

Additional observations from a re-analysis of the deposited data

Results flagged for a closer look

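Within 1b+/-, *Ppp1r1b* stood at 3.84 CPM for replicate 2, whereas replicates 1, 3 and 4 lay between 8.32 and 8.68 CPM. The gap to the nearest library was 0.925 of the range of the group, above Dixon's 95% critical value for 4 samples. The rule was applied to 10 genes within 1b+/-, the 7 members among them, of which 1 passed, and chance flags about 1 in 20 groups. The value rests on 38 counts, and *Penk*, *Tac1*, *Pde10a*, *Drd1a* and *Pdyn* were also lowest in that library. Its cause was not tested.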

How the results depend on the processing

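The number of members past the threshold was 0 in the 3 comparisons under each of 14 alternatives, and that of the other striatal genes was 0 as well. Of the log2 fold changes of single members, 267 kept their direction and 27 changed sign, none of them past the threshold. With sex as a covariate, *Penk* and *Tac1* in 1b+/- against WT became 0.024 and 0.026, *Pde10a* in 1b-/- against WT became -0.25, and *Ppp1r1b* in 1b-/- against 1b+/- became -0.10. Leaving out 1 library at a time changed the sign of small values. In 1b+/- against WT, *Drd2* ranged from -0.11 to 0.042, *Ppp1r1b* from -0.42 to 0.041, *Penk* from -0.35 to 0.23, *Tac1* from -0.52 to 0.19 and *Rgs9* from -0.059 to 0.12. In 1b-/- against WT, *Adora2a* ranged from -0.0020 to 0.40, *Ppp1r1b* from -0.32 to 0.20, *Rgs9* from -0.22 to 0.36 and *Tac1* from -0.045 to 0.31. In 1b-/- against 1b+/-, *Penk* ranged from -0.38 to 0.19, *Rgs9* from -0.25 to 0.32, *Ppp1r1b* from -0.13 to 0.39 and *Tac1* from -0.076 to 0.63. Where 1 library remained in a group, it was assumed to vary like the others. With the longest transcript as length, mean RPKM moved to 3.87 for *Ppp1r1b*, 12.4 for *Rgs9* and 21.8 for *Pde10a*. No paired analysis was possible because replicate numbers follow sample order alone. Among the members, depth limits *Drd2*, *Adora2a* and *Ppp1r1b* most, whose lowest counts were 17, 24 and 26, followed by *Tac1* at 27.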
